A study of Mus musculus with 2 samples.

Results

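The fatty acid elongases and the reductases that complete their reaction cycle were examined in mouse peritoneal macrophages, the phagocytes of the abdominal cavity. The 9 genes were chosen by name, as the rows of the deposited table with the symbols Elovl1 to Elovl7, Hsd17b12 and Tecr, and all 9 were found among 50608 rows. The cells came from C57BL6J mice, male and female pooled, at a stage the labels record as E15.5. In 1 library the cells had been given the solvent DMSO, and in the other GW3965, a synthetic compound that activates the liver X receptors (LXRs), nuclear receptors that respond to oxidised cholesterol. No dose or time of treatment is given in the sources used here, and no label says how many mice were pooled. With 1 library per group there was no replicate check, so the values describe these libraries and no test of the treatment was possible.

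Elongation lengthens a fatty acid bound to coenzyme A in the endoplasmic reticulum, with malonyl-CoA as the carbon donor. Each turn of the cycle starts with a condensation by an ELOVL enzyme, which sets the substrate range, and goes on with a reduction by HSD17B12, a dehydration by an HACD enzyme and a final reduction by TECR. ELOVL1 makes saturated and monounsaturated very long chains for sphingolipids, ELOVL5 lengthens polyunsaturated fatty acids, and ELOVL6 turns palmitate into stearate. In liver, LXR agonists are known to raise fatty acid synthesis largely through Srebf1, whose product SREBP-1 controls Elovl5 and Elovl6 among other lipogenic genes.

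Promoter sequence is shown for Elovl5 and Elovl6, the measured genes with the highest ratios between the libraries, and for Hsd17b12, whose ratio was the next below them. The stretches are the bases upstream of the RefSeq start site on GRCm38.p6, ended before the first base that lies in an exon of any GENCODE M21 gene, and capitals mark the motifs that were searched. For Elovl6 that exon belongs to the antisense gene Gm35986, so its stretch is shorter. The Elovl5 stretch is chr9:77917115-77917363 on the plus strand, that of Elovl6 is chr3:129532136-129532256 on the plus strand, and that of Hsd17b12 is chr2:94157965-94158159 on the minus strand.
Elovl5: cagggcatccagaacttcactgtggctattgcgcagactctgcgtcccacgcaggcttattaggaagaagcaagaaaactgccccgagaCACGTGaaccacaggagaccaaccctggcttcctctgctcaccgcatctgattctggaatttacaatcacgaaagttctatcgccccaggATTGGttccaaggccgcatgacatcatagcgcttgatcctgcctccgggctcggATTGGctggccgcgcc
Elovl6: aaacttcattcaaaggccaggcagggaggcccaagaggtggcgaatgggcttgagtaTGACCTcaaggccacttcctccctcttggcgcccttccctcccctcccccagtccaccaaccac
Hsd17b12: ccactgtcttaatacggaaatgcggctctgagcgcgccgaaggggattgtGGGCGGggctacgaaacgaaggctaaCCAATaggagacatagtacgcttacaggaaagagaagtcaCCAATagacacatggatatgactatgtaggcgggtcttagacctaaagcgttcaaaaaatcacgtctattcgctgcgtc

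The motifs were searched on both strands of the 250 bases before the start site, in 10 windows of 8 genes, since Elovl1 and Elovl2 each have a pair of start sites in the RefSeq table and Elovl3 has no entry there. The direct repeat of AGGTCA with a spacer of 4 bases, the arrangement that LXR and its partner RXR bind, was in 0 of the 10 windows, and 0.0152% of all 32851 windows held it. The sterol regulatory element, searched as TCACNCCAC, was also in 0 of the 10, against 1.05% of all windows. The hexamer AGGTCA by itself was found once in Elovl6 and once in a window of Elovl1, and 14.0% of all windows held it. The E-box CACGTG was found in Elovl5 alone among the 10 windows, at base -161 counted from the start site, against 6.02% of all windows. CCAAT stood at bases -71 and -17 of Elovl5, there on the opposite strand and so shown as ATTGG. In Hsd17b12 it stood at -174 and -134 as CCAAT. It was in 4 of the 10 windows against 33.8% of all. The GC box GGGCGG was in 7 of the 10 against 32.7% of all, and in neither Elovl5 nor Elovl6. A match of letters is no evidence of binding, and an absent match covers exact copies in these 250 bases only. The repeat is so rare over all windows that its absence from 10 says nothing about these genes.

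Values are FPKM as deposited, reads per kilobase of gene scaled to sequencing depth. A gene was called measured at a mean of at least 1 FPKM over the libraries, which 11889 rows reached, and higher or lower at 1.5-fold on the scale log2((GW3965 + 1)/(DMSO + 1)), which understates the differences of low genes. The measured rows had a median of 0.24 on that scale, so log2 ratios are also given centred on it. Without the added 1 FPKM their median ratio was 1.25, and the central 90% ran from 0.976 to 1.64. The steps of the values gave depths of 101866071 reads for DMSO and 75287126 for GW3965, and whole read numbers for all 9 genes. Every interval below is a 95% interval from those reads and covers counting error only, not the spread between mice or cultures. The column taken as GW3965 shares only its opening letters with the label of that sample, and 7 of 7 known LXR targets (Abca1, Abcg1, Mylip, Lpcat3, Pltp, Lpl and Apoe) were higher in it, and 6 of the 7 stayed so once centred. Their median log2 ratio was 1.80. Over all measured rows 3.46% were higher, and 1.38% after centring. These targets were picked with earlier results of these data known, so their count is no independent check of the column.

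The measured genes were the condensing enzymes Elovl1, Elovl5 and Elovl6 and the reductases Hsd17b12 and Tecr, 5 of the 9. All 9 had the larger value in the GW3965 library as deposited, as did 93.6% of the measured rows. Of the 5 measured, 1 was higher by 1.5-fold, Elovl5, and 0 were lower, both as deposited and after centring. Over all measured rows 3.46% were higher and 0.0757% lower as deposited, and 1.38% and 0.336% after centring. The median log2 ratio of the 5 was 0.48, or 0.24 after centring.

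**Figure D1:**
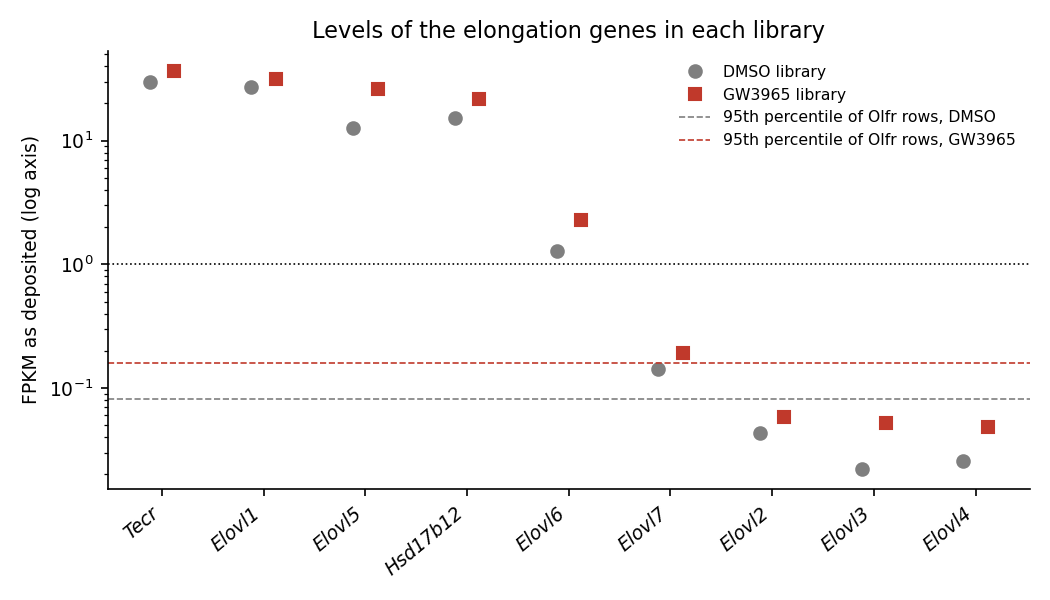
FPKM of the 9 genes (log axis) in the DMSO library (grey circles) and the GW3965 library (red squares), ordered by mean, with the 1 FPKM limit as a dotted line and the 95th percentile of 1083 olfactory receptor rows in each library as dashed lines. Tecr, Elovl1, Elovl5 and Hsd17b12 lie between 12.8 and 36.8 FPKM, Elovl6 lies at 1.28 and 2.26 FPKM, and Elovl2, Elovl3 and Elovl4 lie below the dashed line of their library.

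Elovl5 (ENSMUSG00000032349, GRCm38 chromosome 9, 77917364 to 77984519, plus strand) had the largest difference of the measured genes. It stood at 12.8 FPKM under DMSO and 26.3 FPKM under GW3965, from 4415 and 6713 reads. The GW3965 library was thus the higher, with a ratio of 2.06 (1.98 to 2.14), a log2 ratio of 0.99 and a centred log2 ratio of 0.74. Relative to the median ratio of measured rows it was 1.65. Only 1.02% of measured rows had a log2 ratio at or above that of Elovl5 with 1 FPKM added, and 1.76% had a plain ratio at or above its own. Among 1924 protein-coding rows of like level, with a mean of 10 to 40 FPKM, the share at or above its plain ratio was 1.40%.

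Elovl6 (ENSMUSG00000041220, chromosome 3, 129532355 to 129638495, plus strand) was the least abundant of the measured genes. Its values were 1.28 FPKM under DMSO and 2.26 FPKM under GW3965, from 848 and 1105 reads. The plain ratio was 1.76 (1.61 to 1.93), an interval that lies above 1.5-fold and below the interval of Elovl5. Relative to the median ratio of measured rows, Elovl6 stood at 1.41, which is under 1.5-fold. With 1 FPKM added its log2 ratio was 0.51, which misses the 1.5-fold limit, and the centred value was 0.27. With a pseudocount of 0.1 or 0.5 the log2 ratio was 0.77 or 0.63, past the limit. Of all measured rows, 8.61% and 4.98% were higher at those pseudocounts. Of 2504 protein-coding rows with a mean of 1 to 3 FPKM, 2.08% had a plain ratio at or above that of Elovl6, and their median ratio was 1.23.

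Elovl1 (ENSMUSG00000006390, chromosome 4, 118428093 to 118432953, plus strand) was the most abundant condensing enzyme in both libraries. It had 27.3 FPKM under DMSO and 31.7 FPKM under GW3965, from 5440 and 4666 recovered reads. Its ratio of 1.16 (1.12 to 1.21) was below the median ratio of measured rows, and 70.0% of them had a plain ratio at or above it. The log2 ratio of 0.21 became -0.04 after centring, so the sign of the Elovl1 difference depends on the scaling, as it was also below zero at equal upper quartiles (-0.08).

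Of the reductases of the cycle, Tecr stood near the typical row and Hsd17b12 above it. Tecr, the enoyl reductase of the last step (ENSMUSG00000031708, chromosome 8, 83571698 to 83607971, minus strand), had the highest level of the 9 genes, with 29.8 FPKM under DMSO and 36.8 FPKM under GW3965. Its ratio was 1.24 (1.18 to 1.29), its log2 ratio 0.30 and its centred value 0.05. Without the added 1 FPKM its ratio was 0.991 of the median ratio of measured rows. Hsd17b12, the ketoacyl reductase (ENSMUSG00000027195, chromosome 2, 94032689 to 94157964, minus strand), had 15.3 FPKM under DMSO and 21.8 FPKM under GW3965, from 3921 and 4124 reads. Its ratio of 1.42 (1.36 to 1.49) lay between those of Elovl6 and Tecr, and its log2 ratio was 0.48, or 0.24 after centring. With 1 FPKM added, 6.71% of measured rows had a log2 ratio at or above that of Hsd17b12 and 36.0% at or above that of Tecr. The shares for the plain ratio were 16.7% and 52.6%, and of the protein-coding rows with a mean of 10 to 40 FPKM 9.15% were at or above the plain ratio of Hsd17b12.

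**Figure D2:**
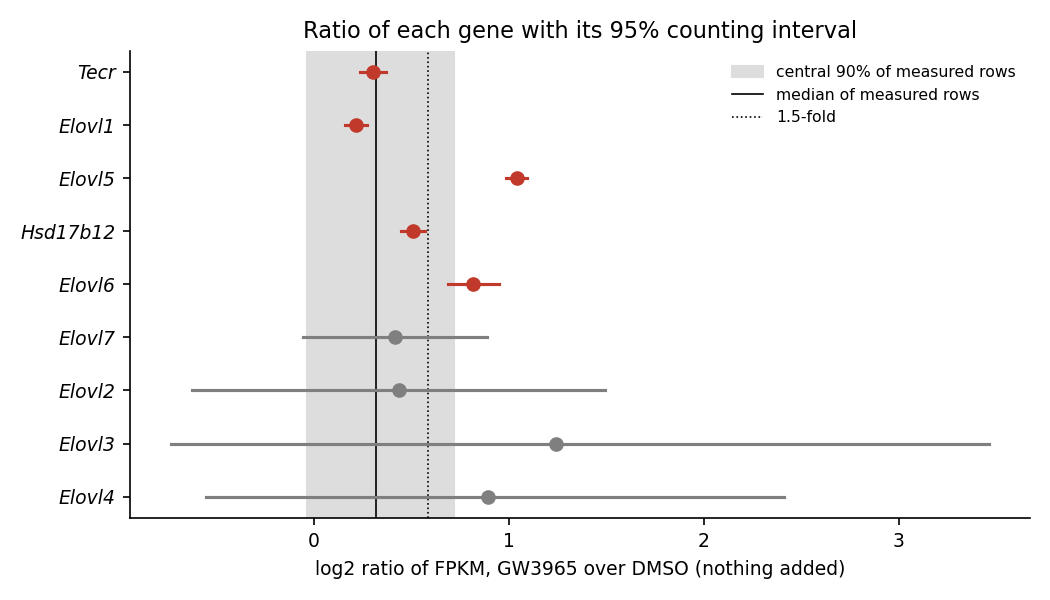
Plain log2 ratio of FPKM under GW3965 over DMSO for each gene, with nothing added, and its 95% counting interval; red marks measured genes and grey those under a mean of 1 FPKM. The grey band is the central 90% of measured rows (ratios 0.976 to 1.64), the solid line their median (1.25) and the dotted line 1.5-fold. Points to the right of the band are those of Elovl5 and Elovl6 and, among the genes under 1 FPKM, of Elovl3 (2.37) and Elovl4 (1.86). The intervals of Elovl2, Elovl3, Elovl4 and Elovl7 reach across the median line.

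Ratios between genes within a library do not depend on how the libraries are scaled. Elovl5 stood at 0.468 of the level of Elovl1 in DMSO and at 0.830 of it in GW3965, a change of 1.77-fold (1.68 to 1.87). Against Tecr the Elovl5 level went from 0.428 to 0.713, or 1.66-fold (1.57 to 1.77), and against Hsd17b12 from 0.832 to 1.20, or 1.45-fold (1.36 to 1.53). Hsd17b12 was thus above Elovl5 in the DMSO library and below it in the GW3965 library, and the other measured genes kept the order Tecr, Elovl1 and, lowest, Elovl6. Elovl6 relative to Elovl1 had a change of 1.52-fold (1.38 to 1.68), and relative to Elovl5 one of 0.857-fold (0.777 to 0.946). Tecr and Elovl1 had nearly the same ratio between the libraries, with a change of 1.06-fold (1.002 to 1.13) of Tecr over Elovl1.

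Elovl5 made up more of the summed FPKM of the Elovl genes in the GW3965 library, and Elovl1 less. The 7 Elovl genes summed to 41.6 FPKM under DMSO and 60.5 FPKM under GW3965, a ratio of 1.46. Elovl5 accounted for 71.1% of that difference in the values as deposited, a share that depends on how the libraries are scaled. Without Elovl5 the sum went from 28.8 to 34.3 FPKM, which gives a ratio of 1.19, below the median ratio of measured rows. Most of that remainder was Elovl1, at 27.3 and 31.7 FPKM, while Elovl6 by itself had a ratio of 1.76. Elovl1 made up 65.6% of the sum of all 7 genes in DMSO and 52.3% in GW3965. Elovl5 made up 30.7% and 43.4%, and Elovl6 3.09% and 3.74%.

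**Figure D3:**
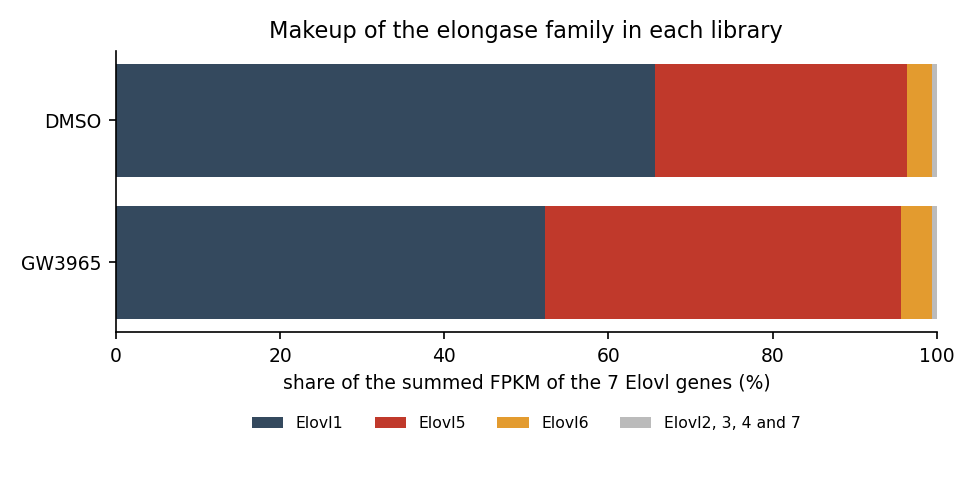
Share of the summed FPKM of the 7 Elovl genes (x axis, percent) taken by Elovl1, Elovl5, Elovl6 and the 4 low genes together, with 1 bar per library. Elovl1 takes 65.6% in DMSO and 52.3% in GW3965, and Elovl5 30.7% and 43.4%.

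The remaining 4 elongases were not measured by the limit of 1 FPKM, and their ratios rest on few reads. Elovl7, which lengthens saturated chains (ENSMUSG00000021696, chromosome 13, 108214404 to 108285683, plus strand), had 0.144 FPKM under DMSO and 0.192 FPKM under GW3965, from 78 and 77 reads, a ratio of 1.34 (0.962 to 1.85). It lay above most olfactory receptor genes, which are silent in nearly all cells outside the nose: 1.48% of their 1083 rows were at or above its level in DMSO and 2.77% in GW3965.

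Elovl2, which makes the longer polyunsaturated chains and is known from liver and testis (ENSMUSG00000021364, chromosome 13, 41182381 to 41220405, minus strand), had 0.0434 and 0.0587 FPKM under DMSO and GW3965, 17 reads in each. Elovl4, which makes the extremely long chains of retina and skin (ENSMUSG00000032262, chromosome 9, 83778692 to 83806277, minus strand), had 0.0258 and 0.0481 FPKM, from 8 and 11 reads. Elovl3, known from brown fat and skin glands (ENSMUSG00000038754, chromosome 19, 46131897 to 46135694, plus strand), had 0.0221 and 0.0524 FPKM, from 4 and 7 reads. These levels cannot be told from those of olfactory receptor rows, of which 26.4% were at or above Elovl2, 50.2% at or above Elovl4 and 64.2% at or above Elovl3 in DMSO, and 63.5%, 70.3% and 67.2% in GW3965. The plain ratios were 1.35 (0.649 to 2.82) for Elovl2, 1.86 (0.682 to 5.33) for Elovl4 and 2.37 (0.602 to 11.03) for Elovl3. The median level of the olfactory receptor rows was 2.64 times as high in GW3965 as in DMSO, and 8946 protein-coding rows with a mean of 0.01 to 0.3 FPKM had a median ratio of 1.80, so low rows in general were higher in that library.

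By level, Elovl6 was followed in both libraries by Elovl7 and then by the other 3 genes. The counting intervals of Elovl2, Elovl3 and Elovl4 overlapped each other in both libraries, so no order among them is given. In DMSO they were 0.0253 to 0.0695 FPKM for Elovl2, 0.0112 to 0.0509 for Elovl4 and 0.00603 to 0.0567 for Elovl3. Elovl7 was above these ranges at 0.114 to 0.179 FPKM. Those of Tecr (28.9 to 30.8 FPKM) and Elovl1 (26.6 to 28.0 FPKM) did not overlap in DMSO, nor did those of Hsd17b12 (14.9 to 15.8 FPKM) and Elovl5 (12.4 to 13.1 FPKM).

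Reads of 100 bases could be assigned to these genes with little ambiguity among annotated transcripts. No stretch of 100 bases in the M21 transcripts of Elovl1, Elovl2, Elovl3, Elovl4, Elovl5, Elovl7 or Hsd17b12 was found in a transcript of another gene. Elovl6 shared 57 of 6564 such stretches (0.868%) with Gm11295, and Tecr shared 50 of 2937 (1.70%) with Gm47441 and Gm48016. No label states that the libraries kept strand, so reads where genes overlap on opposite strands cannot be told apart. Elovl1 exons overlapped those of Cdc20, a cell cycle gene at 0.293 and 0.274 FPKM, by 53 bases, 1.94% of the Elovl1 exons. Exons of Elovl6 overlapped the antisense gene Gm35986 by 34 bases, and those of Elovl3 overlapped Pitx3 by 10.

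The dehydratases complete the cycle and are listed in the table under older symbols. Of the 4, all measured, 0 were higher or lower by 1.5-fold. Hacd3 (listed as Ptplad1), the most abundant in DMSO, had 11.1 FPKM there and 13.1 FPKM under GW3965, a ratio of 1.18 (1.12 to 1.25). Hacd4 (Ptplad2) had 9.28 and 13.3 FPKM, which gives a ratio of 1.43 (1.37 to 1.5). Hacd2 (Ptplb) had 2.07 and 2.71 FPKM, which gives a ratio of 1.31 (1.18 to 1.46). Hacd1 (Ptpla) had 1.13 and 1.90 FPKM, which gives a ratio of 1.68 (1.39 to 2.04), and its log2 ratio was 0.45 with 1 FPKM added. Their centred log2 ratios ran from -0.02 for Hacd3 to 0.23 for Hacd4. Tecrl, a relative of Tecr, was not measured, at 0.0293 and 0.0623 FPKM.

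Among related genes of lipid metabolism, some of substrate supply, desaturation and fatty acid activation were past 1.5-fold, as was Srebf1. Of 6 measured genes for malonyl-CoA and palmitate, 3 were higher by 1.5-fold, 2 after centring, and 0 lower, with a median log2 ratio of 0.59. Besides Fasn they were Acaca, the carboxylase that makes malonyl-CoA, with 5.63 and 12.6 FPKM and a ratio of 2.24 (2.17 to 2.32), and Acss2, which activates acetate, with 1.02 and 2.08 FPKM and a ratio of 2.05 (1.83 to 2.29). Of 5 measured desaturases, 3 were higher (Scd1, Scd2 and Fads2) and 0 lower, with a median of 1.85. Of 7 measured acyl-CoA synthetases, which activate free fatty acids, 2 were higher and 0 lower, with a median of 0.22. They were Acsl3, with 5.56 and 19.8 FPKM and a ratio of 3.57 (3.40 to 3.74), and Acsl4, with 22.1 and 45.7 FPKM and a ratio of 2.06 (2.02 to 2.11).

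Of 3 measured ceramide synthases (Cers2, Cers5 and Cers6), 0 were higher or lower and the median log2 ratio was 0.37. Of 7 measured genes of peroxisomal breakdown of very long chains, 0 were higher or lower and the median was 0.20, or -0.05 after centring. Among 12 measured lipogenic regulators, Srebf1 was higher and 0 were lower, with a median of 0.16. All these counts are to be read beside the 3.46% of measured rows that were higher, and the difference between lists was not tested.

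**Figure D4:**
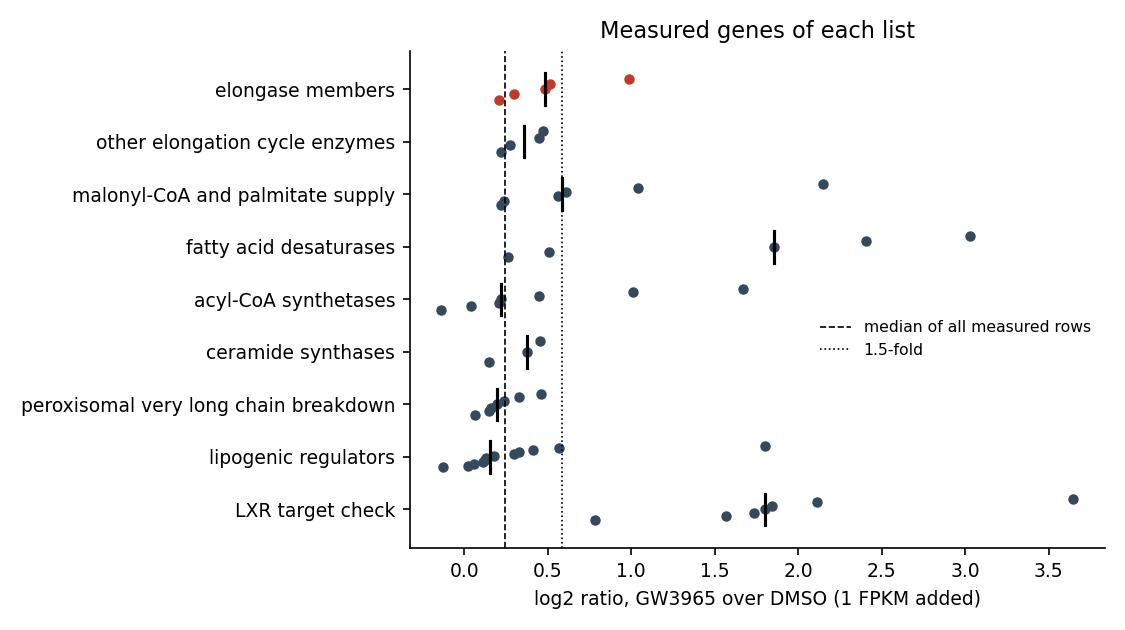
Log2 ratio (1 FPKM added) of each measured gene, 1 row per list, with the list's median as a black bar, the median of all measured rows (0.24) as a dashed line and 1.5-fold as a dotted line. Elovl5 (0.99) is the rightmost of the elongase points (red), left of the medians of the desaturases (1.85) and of the LXR targets (1.80).

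Among 51 measured genes of these lists, Acsl4 and Acaca had the log2 ratios nearest to that of Elovl5, at 1.01 and 1.04, followed by Apoe (0.78), Acss2 (0.61) and Insig1 (0.57). Likeness here is the difference of a single log2 ratio over 2 libraries.

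The cells carried the markers of macrophages, with 9 of 10 measured, led by Lyz2 at 4053 and 4822 FPKM, Mpeg1 at 635 and 841, and Cd68 at 235 and 238 FPKM. Fewer cells of a type and less RNA per cell cannot be told apart in such bulk samples. Markers of mesothelium and fibroblasts, 7 of 12 measured, summed to 20.9 FPKM under DMSO and 31.6 in GW3965. Those of B cells, 4 of 7 measured, summed to 20.2 and 77.5 FPKM, with Ighm at 9.26 and 64.4. Adipocyte, hepatocyte and keratinocyte lists, tissues known for Elovl3, Elovl6 or Elovl4, had 0 measured genes, with sums of 0.240 and 0.485, 0.292 and 0.691, and 0.479 and 0.945 FPKM. The lists of T and NK cells (0.496 and 0.833 FPKM), mast cells and eosinophils (0.730 and 1.83) and erythroid cells (0.352 and 0.433) also had 0 measured genes. The erythroid sum rests on 3 of 6 genes, as the haemoglobin genes of that list were not matched. Neutrophil markers, 1 of 7 measured, summed to 3.73 and 4.40 FPKM, and endothelial markers, 2 of 6 measured, to 5.37 and 5.20 FPKM. No matched marker of any of these lists was at 0 in both libraries. The part of other cells in the Elovl5 and Elovl6 values was not tested.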

How the data were processed

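RNA of 2 libraries, 1 given DMSO and 1 given GW3965, was made with a Qiagen kit and the Illumina TruSeq RNA kit, per the labels' protocols. The authors deposited 1 table of FPKM values for both. The submitters' processing notes name STAR 2.3.0, HTSeq 0.5.4p3 and GRCm38 (mm10), with no role. The sources used here give no annotation, strand setting, filter or treatment of reads with several matches.

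The low FPKM values move in steps of whole reads, from which the depth was worked out. With a factor of 1.35 between the libraries, 96.9% of 28536 low rows gave whole-number ratios with a denominator up to 60, against 2.00% with the factor moved by 1%. GENCODE M21 exon lengths less 99 bases, as for reads of 100 bases, then placed 530 of 11028 rows on 1 depth. It was 101866071 reads for DMSO and 75287126 for GW3965. With that depth divided by 2 the rows placed were 137, and with another length reduction at most 131. For each gene, lengths of 100 to 12000 bases that gave whole reads in both libraries were listed. The shortest within 2-fold of the M21 length was used, which gives the widest interval. For Elovl1 and Tecr a multiple of the reads would serve as well. A multiple also stays within 2-fold for Elovl2, Elovl3 and Elovl5, though the lengths used for these are near the M21 length. Intervals are exact: conditional (Clopper-Pearson) for ratios, conditional on the margins for pairs of genes and Poisson for levels. The steps were tested on simulated data.

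No test of the treatment was made, since each group has 1 library. The members and the 20 gene lists (160 entries, 156 matched, 5 of them by an older symbol) were chosen with earlier results of these data known. Named genes are all 9 members, the dehydratases, up to 4 genes per list past 1.5-fold, up to 3 per marker list, and the 5 nearest to Elovl5 in log2 ratio. Not every gene that meets this rule is given with values. Promoter sequences are from RefSeq (GRCm38.p6). Tools were scipy 1.17.1, matplotlib 3.10.9, pandas 2.3.3 and numpy 2.4.6 under Python 3.11.15. The alternatives were other pseudocounts, filters, scalings and a 2-fold limit.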

Additional observations from a re-analysis of the deposited data

How the results depend on the processing

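No paired analysis was possible because neither treatment has a second library. Against 1 member higher by 1.5-fold, the count was 2 with a pseudocount of 0.1 or 0.5, where Elovl6 passed, 3 with the libraries scaled to the same sum of FPKM, where Elovl6 (log2 ratio 0.71) and Hsd17b12 (0.74) passed, and 0 at 2-fold, which Elovl5 (0.99) misses with 1 FPKM added. Over all rows tested, the share higher was 8.61% and 4.98% at those pseudocounts, 21.9% at equal sums and 0.984% at 2-fold. The count was 1 under the other 5 alternatives, and the count of lower members was 0 under all 9. The median log2 ratio of measured members, 0.48, was 0.21 with no filter on low values, which adds the 4 low genes, 0.24 once centred, 0.20 at equal upper quartiles, 0.71 at equal sums and 0.25 centred on the median of protein-coding rows, an alternative chosen after seeing the data. Of these, the scalings move all rows together. Of 54 values of single members under the other pseudocounts and scalings, 50 stayed on their side of the limit and 4 went past it. The filters and the 2-fold limit are not in that tally. It includes the 4 low genes, which the added FPKM keeps under the limit. Of 144 list counts, 139 stayed within 1.5 times and 5 were larger, but the counts of lower genes among them were 0 throughout. Both tallies therefore say little about stability. Depth limits the low genes: 1 read of a gene of 1 kb counts as 0.00982 FPKM under DMSO and 0.0133 FPKM under GW3965.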
